A study of Mus musculus with 12 samples.

Results

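The genes described here are those of glutathione metabolism and the NRF2 antioxidant response in the mouse heart, measured by RNA-Seq in atria and ventricles of a myotonic dystrophy type 1 model. They were taken by a rule on gene symbols. Earlier results of these data were known when the members were chosen, so shares of members set beside all genes are descriptive. The rule took the cytosolic glutathione transferases of the alpha, mu, pi, theta, omega and zeta classes, the microsomal glutathione transferases, the glutathione peroxidases, the peroxiredoxins, the superoxide dismutases, and Gclc, Gclm, Gss, Gsr, Nqo1, Hmox1, Txnrd1, Txnrd2, Srxn1, Cat, Nfe2l2, Keap1, Hagh and Glo1. It found 55 of the 51826 entries of the deposited table, and each of the 55 matched a single gene of the GRCm38 annotation.

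CUG960 +dox mice were homozygous for TREDT960I, a tetracycline-responsive transgene with 960 interrupted CTG repeats in human DMPK sequence, and hemizygous for MHCrtTA, which expresses the reverse tetracycline transactivator from the Myh6 promoter, that is in cardiomyocytes. MHCrtTA +dox controls were hemizygous for the transactivator only. All 6 mice were female, of the FvB strain and 10 weeks old, and all received dox from postnatal day 1, so that the groups shared dox and the transactivator and differed in the repeat transgene. Atria and ventricles of the same 3 controls (V327, V333 and V334) and 3 CUG960 +dox mice (V119, V120 and V123) gave 12 libraries in 4 groups, with between 116127966 and 160676189 counts each. Depth separated the genotypes, with fewer counts in CUG960 libraries of atria and more in those of ventricles. Levels are normalized CPM, that is counts scaled to library size by the TMM method over all 12 libraries, always in the order of mice given above.

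Glutathione is a tripeptide made by glutamate-cysteine ligase, whose catalytic and modifier subunits are Gclc and Gclm, and by glutathione synthetase, Gss, and its oxidized form is reduced again by Gsr. Glutathione transferases couple it to reactive compounds, glutathione peroxidases use it to reduce peroxides, and the glyoxalases Glo1 and Hagh use it to turn methylglyoxal, a by-product of glycolysis, into lactate. NRF2, encoded by Nfe2l2, is a transcription factor that KEAP1 holds at a low level through ubiquitination, and when released it raises many of these genes from antioxidant response elements. In the heart, where mitochondria are dense, the mitochondrial enzymes Sod2, Prdx3 and Txnrd2 handle superoxide and peroxide made by respiration.

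The core of the antioxidant response element was searched for in both strands of the promoters of the members as TGACNNNGC, with N for any base. RefSeq promoters of the GRCm38.p6 build, 250 bases before to 50 bases after each gene start, were given for 48 of the 55 members. Of these 48, 11 (22.9%) held a match in at least 1 of their promoters, against 3781 of 27025 genes (14%) with such a promoter. The 11 were Gclm, Gsta3, Gstm5, Gstm7, Hagh, Mgst1, Nfe2l2, Prdx1, Sod1, Srxn1 and Txnrd1. A match is a stretch of letters and no binding was measured. The following 29 bases are shown for Nfe2l2 itself, for 4 genes widely used as NRF2 targets and for Hagh, the member with the largest change among those above 1 CPM, each on the strand of its gene and with the matched bases in capitals.
Nfe2l2, chr2:75704885-75704913, minus strand: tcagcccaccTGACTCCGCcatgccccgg
Gclm, chr3:122245413-122245441, plus strand: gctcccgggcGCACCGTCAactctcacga
Prdx1, chr4:116685456-116685484, plus strand: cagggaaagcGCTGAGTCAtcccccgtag
Txnrd1, chr10:82859104-82859132, plus strand: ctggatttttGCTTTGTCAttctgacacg
Srxn1, chr2:152105542-152105570, plus strand: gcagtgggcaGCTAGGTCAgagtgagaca
Hagh, chr17:24850677-24850705, plus strand: gtctaggtacTGACGCGGCgcggccgggt
In Gclm, Prdx1, Txnrd1 and Srxn1 the core read in the opposite direction to the gene. The matches of Hagh and Srxn1 lay 21 and 29 bases after a gene start, and the others before it. Hagh had 2 promoters in RefSeq, both within the bounds of the gene in the GRCm38 annotation, and the other held 0 matches.

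Before the members were compared, the labelled tissues were checked against marker genes. Atrial cardiomyocyte markers, led by Nppa, Myl4 and Myl7, summed to between 23228 and 30503 CPM in atria and to between 126 and 368 CPM in ventricles. Ventricular markers, led by Myl2, Myl3 and Mybpc3, summed to between 1301 and 1709 CPM in atria and to between 18204 and 23145 CPM in ventricles. Among the atria a single library stood apart in its blood cell transcripts: the 8 erythroid markers, led by Hbb-bs, summed to 2767 CPM in atria of control V334, against 514 and 323 CPM in the other control atria and 440, 323 and 352 CPM in those of CUG960 +dox mice. In ventricles these sums were between 1289 and 2914.5 CPM. In atria of control V334 Prdx2, a peroxiredoxin abundant in red cells, was at 319 CPM, between the 331 and 311 CPM of the other controls. Without V334, 3 members were differentially expressed in atria and 3 in ventricles.

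Levels of different genes were compared per length, as mean CPM per kb of exon. The most abundant member was Gpx3, the secreted plasma glutathione peroxidase, in atria of the controls, at 993 CPM per kb. In ventricles of the controls Gpx4, the peroxidase of membrane lipid hydroperoxides, led with 343 CPM per kb, followed by Mgst3 with 226 and the mitochondrial Prdx3 with 211 CPM per kb. Among the cytosolic transferases Gstm1 was highest, at 151 CPM per kb in atria and 129 in ventricles, and Gsta2 lowest among those tested in ventricles, at 0.0932 CPM per kb. The peroxiredoxins ran from Prdx4, an enzyme of the endoplasmic reticulum, at 7.08 CPM per kb to Prdx3 in ventricles of the controls. Sod3, which is extracellular, and Cat spanned 8.30 to 108 CPM per kb there. The enzymes of glutathione synthesis and recycling were between 2.95 CPM per kb for Gclc and 7.96 CPM per kb for Gsr. Of the thioredoxin reductases, the cytosolic Txnrd1 was at 8.10 and the mitochondrial Txnrd2 at 8.78 CPM per kb. Of the glyoxalases, Glo1 was at 10.1 and Hagh at 35.8 CPM per kb. The length joins all annotated exons, 12101 bases for Glo1 and 1908 for Hagh, and need not be that of the transcript expressed. Without division by length Glo1 was the higher there, at 122 CPM against 68.4 CPM for Hagh. The lowest tested members of the other families in ventricles of the controls were Mgst1, at 6.18 CPM per kb, and Gpx7, at 6.52. Keap1 was at 11.3 and Nfe2l2 at 22.3 CPM per kb, and Hmox1 at 4.54 and Nqo1 at 37.8.

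**Figure D1:**
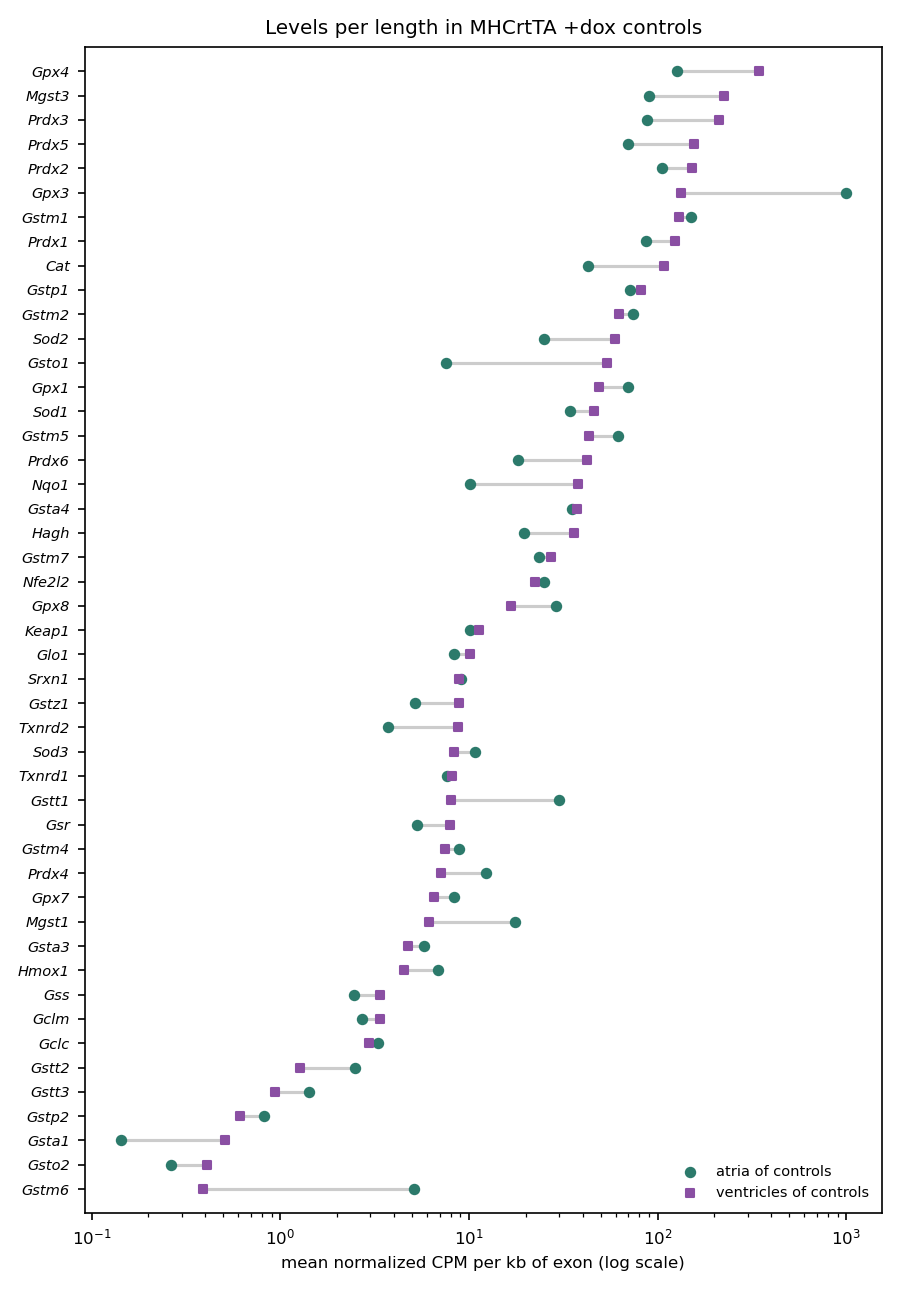
Mean normalized CPM per kb of exon (log axis) of the 47 members tested in both chambers, in atria (circles) and ventricles (squares) of MHCrtTA +dox controls, n = 3 mice each, sorted by the ventricular level. Gpx3 in atria, at 993 CPM per kb, is the highest point, and Gstm6, Gsto1 and Gpx3 show wide gaps between chambers.

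Some members could not be followed. Gpx2, an intestinal peroxidase, had 0 counts in every library, where a count of 0 allows up to 3 counts, and Gpx5, Gpx6 and Gstt4 had at most 3 counts in any library. Gstm3 had at most 9 and Gstp3 at most 7 counts. These 6 were not tested in any comparison. Gsta2 had at most 4 counts in any atrial library and was tested between genotypes in ventricles only, and Mgst2, with between 5 and 23 counts in atria and at most 7 in ventricles, was tested between genotypes in atria only. In each chamber 48 members were thus tested. RSEM divides reads between near-identical sequences, and the share of 100-base windows of a gene's exons found in another gene was 80.6% for Gsta1, 46.9% for Gstp2, 28.4% for Gsta2, 25.2% for Gpx4 and 25.1% for Gstp1, so the counts of these 5 genes are uncertain. For Sod2 the share was 12.8%, with AC166110.4 and Rps6ka2. For Gstt3 it was 10.8%, with Gm20441, a transcript annotated over the same locus. For Hagh, Gsto1 and Gpx3 it was 0%.

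NRF2 and KEAP1 were measured first, as the regulators of the response. Nfe2l2 was at 98.4, 89.8 and 97.5 CPM in atria of the controls and at 110, 112 and 97.2 CPM in atria of CUG960 +dox mice. In ventricles it was at 84.1, 85.6 and 84.4 CPM in controls and at 78.5, 82.2 and 86.0 CPM in CUG960 +dox mice. The groups overlapped in each chamber, and the log2 changes were 0.16 in atria and −0.04 in ventricles, with adjusted P values of 0.183 and 0.750. Where DESeq2 is not named, adjusted P values come from edgeR, by its quasi-likelihood test and the Benjamini-Hochberg method. Keap1 was at 48.5, 47.4 and 46.4 CPM in atria of the controls against 49.6, 51.4 and 47.3 CPM, and at 52.0, 54.7 and 52.7 CPM in ventricles against 56.8, 62.0 and 53.9 CPM. It overlapped as well, with adjusted P values of 0.526 and 0.377.

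The genes most used as readouts of NRF2 did not pass the threshold, which asked for an adjusted P value under 0.05 together with at least a 1.5-fold change. Nqo1, the NAD(P)H quinone reductase, was at 16.9, 15.1 and 15.3 CPM in atria of the controls and at 16.5, 15.6 and 16.1 CPM in those of CUG960 +dox mice, and at 59.6, 59.2 and 57.4 against 59.1, 54.4 and 56.0 CPM in ventricles. Its levels overlapped between genotypes in both chambers. Hmox1, heme oxygenase 1, was at 11.8, 10.1 and 14.3 CPM in atria of the controls and at 8.11, 10.4 and 8.04 CPM in CUG960 +dox mice, a log2 change of −0.45 (standard error 0.15, adjusted P value 0.0812). Its highest control was V334, the atrial library with the most erythroid transcripts, and without V334 the log2 change was −0.31 (adjusted P value 0.225). In the fits without another mouse it was between −0.58 and −0.39, with adjusted P values between 0.0642 and 0.223. The adjusted P value was 0.0164 by DESeq2 and 0.0407 with no filter on low counts, at log2 changes of −0.45, under the fold limit. In ventricles Hmox1 was at 8.94, 7.62 and 7.32 against 6.19, 8.34 and 6.67 CPM, with overlap.

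The rate-limiting ligase of glutathione synthesis was close between genotypes. Gclc was at 12.2, 12.5 and 12.6 against 12.5, 15.5 and 13.7 CPM in atria, with overlap (adjusted P value 0.243). In ventricles it was at 12.1, 9.89 and 11.4 against 13.6, 12.3 and 12.2 CPM. Each CUG960 library was there narrowly above each control, by a log2 change of 0.19 (adjusted P value 0.299). Gclm was at 19.7, 15.4 and 15.9 against 16.9, 17.3 and 17.4 CPM in atria, and at 21.6, 19.3 and 22.5 against 24.2, 21.3 and 18.4 CPM in ventricles, with a wide overlap. Txnrd1 was at 58.0, 53.3 and 51.0 against 49.8, 56.5 and 53.0 CPM in atria, with overlap, and at 59.5, 55.0 and 57.6 against 52.0, 51.2 and 50.5 CPM in ventricles. There each CUG960 library was below each control, by a log2 change of −0.16 (adjusted P value 0.170).

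Srxn1, sulfiredoxin, which repairs overoxidized peroxiredoxins, was lower in CUG960 +dox mice in both chambers, by less than the fold limit. It was at 25.6, 25.1 and 26.2 CPM in atria of the controls and at 19.7, 21.0 and 21.7 CPM in CUG960 +dox mice, and at 26.2, 25.7 and 23.3 against 17.9, 21.2 and 21.0 CPM in ventricles. No library of CUG960 +dox mice reached a control in either chamber. The log2 change was −0.30 in atria (standard error 0.06, adjusted P value 0.0154) and −0.32 in ventricles (standard error 0.10, adjusted P value 0.0672). Gsta1, an alpha-class transferase induced by NRF2 in liver, was scarce, at 0.111, 0.126 and 0.172 against 0.0279, 0.141 and 0.0956 CPM in atria and at 0.398, 0.665 and 0.402 against 0.309, 0.427 and 0.783 CPM in ventricles, and overlapped in each chamber.

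**Figure D2:**
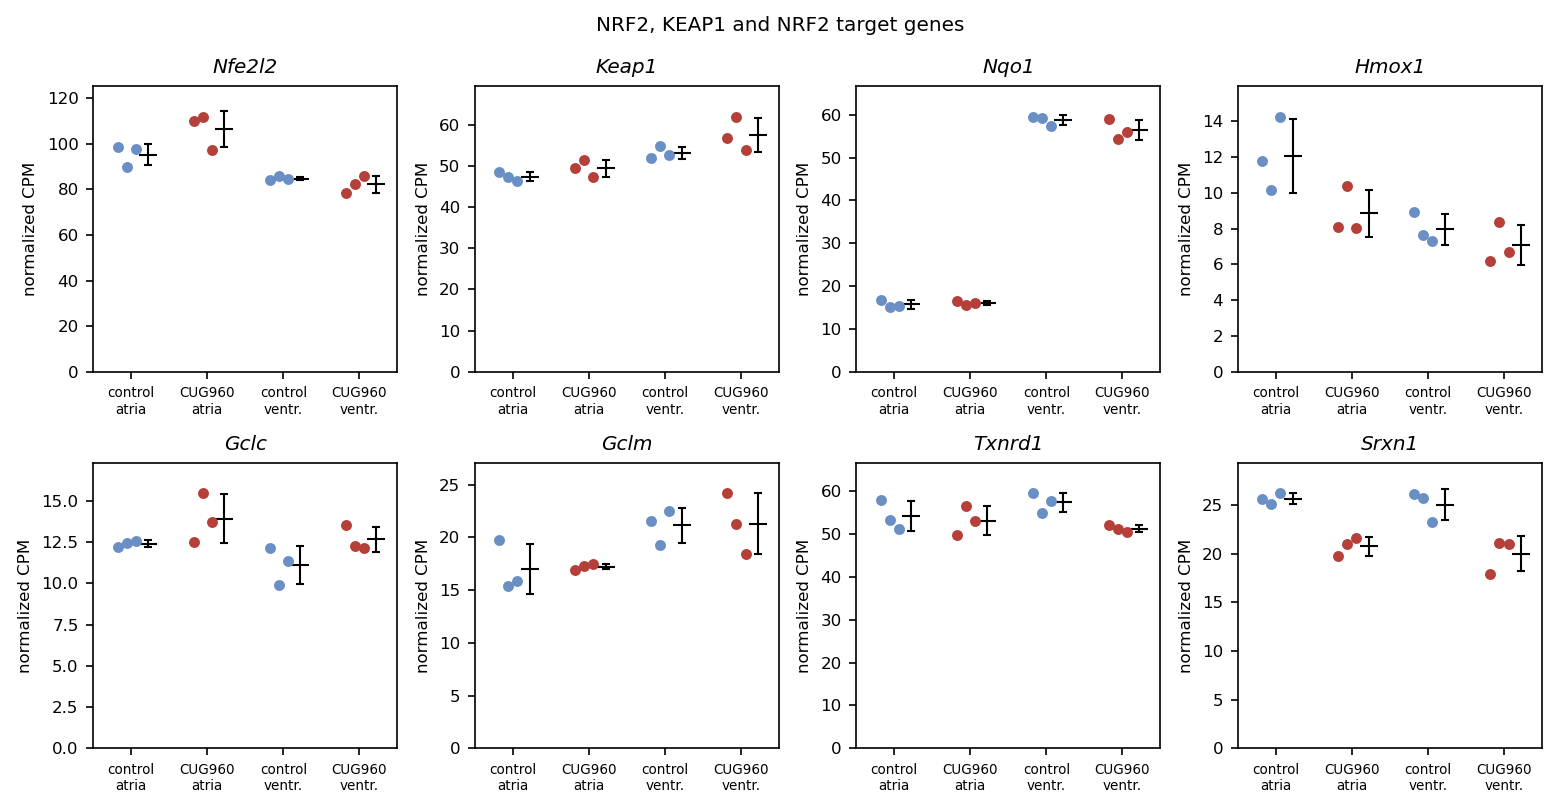
Normalized CPM of Nfe2l2, Keap1 and 6 NRF2 target genes in each library (points), with the mean and SD over 3 mice (bars), for controls (blue) and CUG960 +dox mice (red) in atria and ventricles. Srxn1 is the gene shown here whose groups were apart in both chambers, and Nqo1 shows its ventricular level of 54.4 to 59.6 CPM against 15.1 to 16.9 CPM in atria.

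In atria, 3 of the 48 members tested (6.25%) were differentially expressed, Hagh, Gsto1 and Gstm6, all higher in CUG960 +dox mice. Among all 17650 genes tested the share was 5.49%, with 3.37% higher and 2.12% lower, so that the members' share was near the background. None was lower by edgeR, by which 4 members were lower and 13 higher at an unadjusted P value under 0.05, and DESeq2 also called 3 higher and 0 lower. Without the fold limit 9 members (18.8%) had an adjusted P value under 0.05, 8 higher and 1 lower, against 14.6% of all genes. The genotypes did not overlap for 16 members (33.3%), 12 with all CUG960 libraries above the controls and 4 with all below, against 35.7% of all genes tested. The median log2 change was 0.05 over the members and −0.01 over all genes.

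In ventricles, 4 of 48 members (8.33%) were differentially expressed. Hagh, Gpx3 and Gsta2 were higher and Gstm2 was lower, where 4.75% of all 16909 genes tested were called, 3% higher and 1.76% lower. DESeq2 called 2 higher and 1 lower, without Gsta2. The count fell to 2 without V119 and without V333, in each case by the loss of Gstm2 and Gsta2. With no fold limit 7 members (14.6%) had an adjusted P value under 0.05, against 9.94% of all genes. The genotypes did not overlap for 18 members (37.5%), 8 above and 10 below, against 31.2% of all genes, and the median log2 change was −0.04 over the members and −0.01 over all genes. In bulk tissue, fewer cells of a type and less RNA per cell cannot be told apart for any of these differences.

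**Figure D3:**
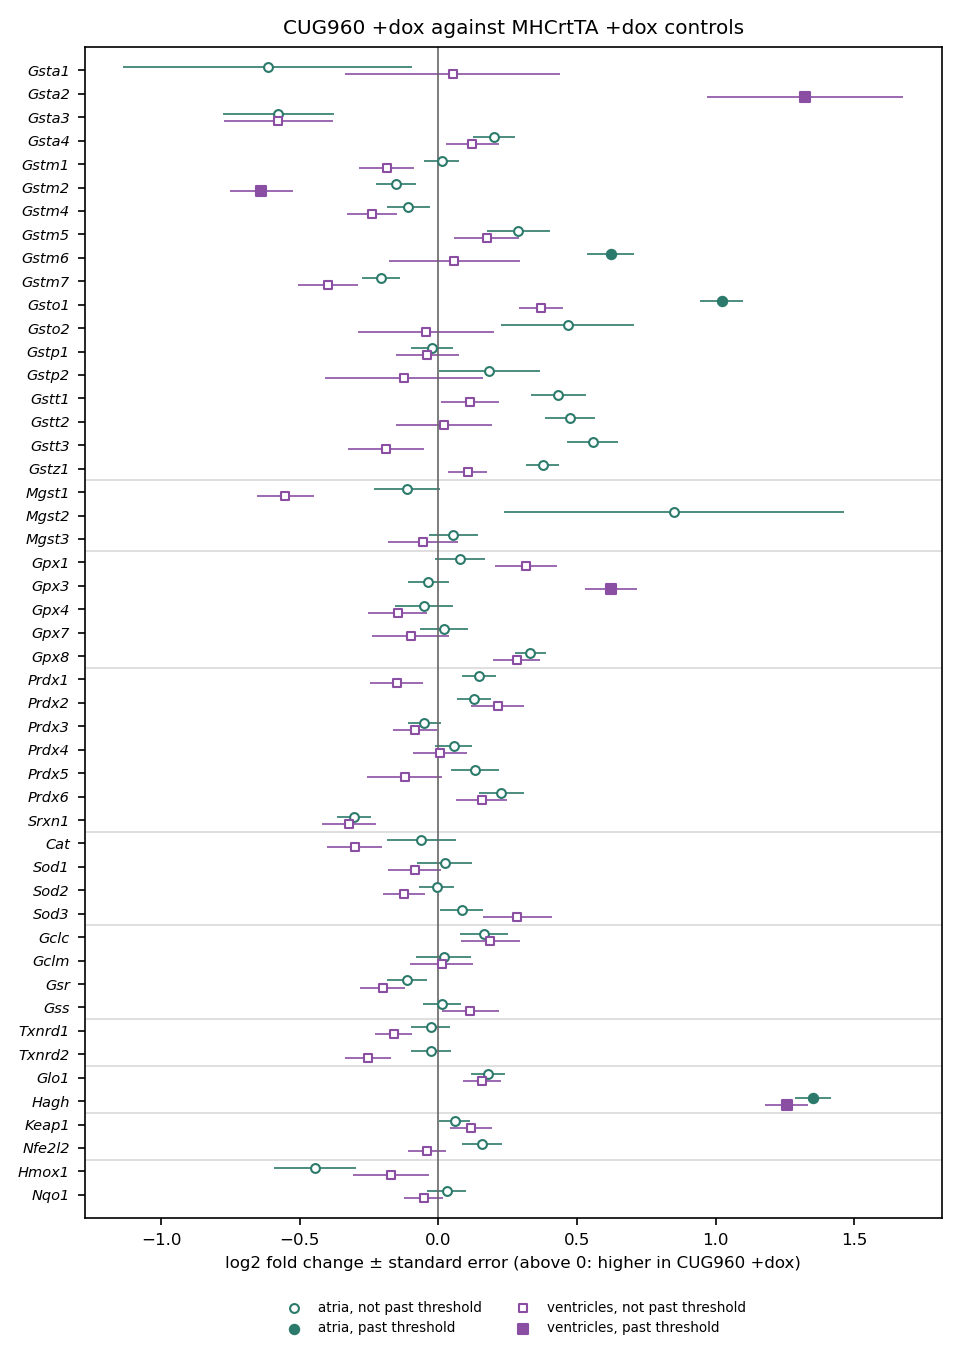
Log2 fold change with its standard error for each member tested, CUG960 +dox mice against MHCrtTA +dox controls (n = 3 against 3), in atria (circles) and ventricles (squares), grouped by family, with filled symbols past the threshold. Most members lie close to 0, and Hagh is the member with filled symbols in both chambers, at 1.35 and 1.26.

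Hagh, hydroxyacylglutathione hydrolase or glyoxalase II, releases glutathione and lactate from the product of Glo1, in cytosol and mitochondria. It was the member that passed the threshold, fold limit included, in both chambers. In atria it was at 36.8, 37.3 and 38.1 CPM in controls and at 94.7, 102 and 89.7 CPM in CUG960 +dox mice, a 2.55-fold increase (log2 change 1.35, standard error 0.06, adjusted P value 2.88e-05). In ventricles it was at 65.2, 74.8 and 65.1 CPM in controls and at 164, 162 and 163 CPM in CUG960 +dox mice, a 2.39-fold increase (log2 change 1.26, standard error 0.08, adjusted P value 3.66e-05). The lowest CUG960 library, at 89.7 CPM in atria and 162 CPM in ventricles, was well above the highest control of its chamber, and the increase did not differ detectably between chambers (interaction log2 −0.10, adjusted P value 0.761). The log2 change was 1.3 to 1.39 in atria and 1.22 to 1.33 in ventricles under every alternative run.

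Hagh spans bases 24840143 to 24864450 of chromosome 17 of GRCm38, plus strand, and the gene Fahd1 lies within these bounds on the other strand. Fahd1, at a mean of 51.8 CPM, had log2 changes of 0.20 and 0.16 in atria and ventricles, with adjusted P values of 0.121 and 0.377. Among the 11 genes tested within 100 kb of Hagh, the gene called in a chamber was Igfals, in ventricles, at a mean of 1.14 CPM over all libraries and with a log2 change of 1.34 (adjusted P value 0.0388). The partner enzyme Glo1, which forms the substrate of Hagh, was at 104, 99.1 and 98.8 against 120, 108 and 114 CPM in atria and at 121, 128 and 118.6 against 139, 134 and 137 CPM in ventricles. Each CUG960 library was above each control, but the increases were small, with log2 changes of 0.18 and 0.16 and adjusted P values of 0.0926 and 0.185.

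Gsto1, an omega-class transferase that acts mainly as a thioltransferase and dehydroascorbate reductase, rose in atria and was higher in ventricles by less than the fold limit. It was at 15.6, 13.8 and 16.5 CPM in atria of the controls and at 30.1, 31.0 and 32.2 CPM in CUG960 +dox mice, a 2.03-fold increase (log2 change 1.02, standard error 0.08, adjusted P value 2.38e-04). In ventricles it was at 108, 118 and 103 CPM in controls and at 133, 148 and 143 CPM in CUG960 +dox mice, a 1.29-fold difference (log2 change 0.37, standard error 0.08, adjusted P value 0.0207). The groups did not overlap in either chamber. The increase was larger in atria (interaction log2 −0.65, standard error 0.11, adjusted P value 0.0123), and the level in atria of CUG960 +dox mice stayed below that in ventricles of the controls. The interaction had an adjusted P value of 0.0589 without V119, 0.0630 without V123, 0.0569 without V327 and 0.0695 without V333.

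Gsto1 spans bases 47854970 to 47864790 of chromosome 19, plus strand, inside the bounds of Cfap43 on the other strand. Cfap43 had log2 changes of 0.35 (atria) and 0.53 (ventricles) (adjusted P values 0.0454 and 0.00479), a smaller difference than that of Gsto1 in atria and a larger one in ventricles. The libraries were stranded, but whether the counting used strand is not given in the sources used here, so reads of the overlapping genes may have been mixed. The neighbouring Gsto2, its paralog, was at 0.471, 0.597 and 0.784 against 0.852, 0.727 and 0.985 CPM in atria, with overlap. Its adjusted P values were 0.233 and 0.933, and those of Cfap58, the third gene tested within 100 kb, were 0.775 and 0.223.

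**Figure D4:**
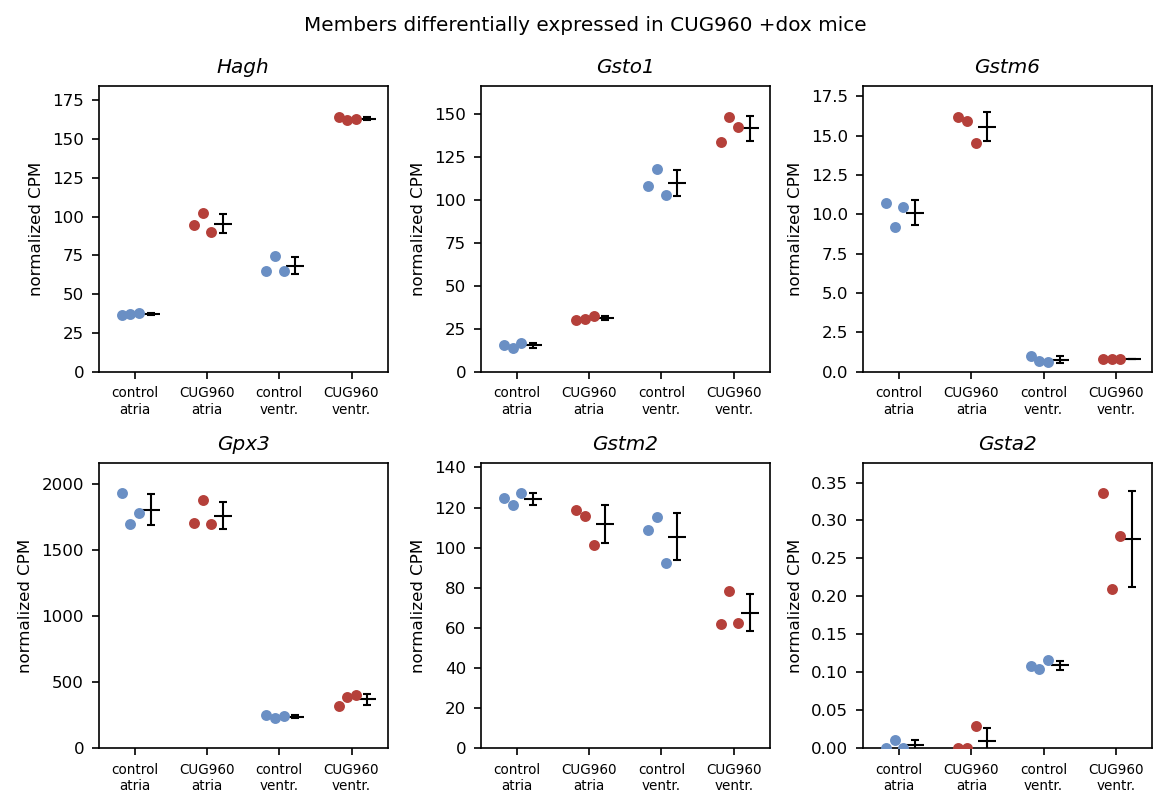
Normalized CPM of the 6 members differentially expressed between genotypes in at least 1 chamber, in each library (points), with the mean and SD over 3 mice (bars), for controls (blue) and CUG960 +dox mice (red). By the threshold, Hagh is raised in both chambers, Gsto1 and Gstm6 in atria, and Gpx3 in ventricles against a much higher atrial level. Gsto1 is also higher in ventricles, by less than the fold limit. Gstm2 is lowered in ventricles, and Gsta2 stays at or under 0.336 CPM.

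The mu-class transferases, which lie side by side on chromosome 3, did not move together. Gstm6, on the minus strand from 107938847 to 107943749, was at 10.7, 9.20 and 10.5 CPM in atria of the controls and at 16.2, 16.0 and 14.5 CPM in CUG960 +dox mice, a 1.54-fold increase (log2 change 0.62, standard error 0.09, adjusted P value 0.00329). It passed the fold limit in every alternative with that limit except the one without V333, where the log2 change was 0.55. In ventricles it was near 1 CPM or below in each library, at 1.0, 0.684 and 0.643 against 0.802, 0.812 and 0.807 CPM, with overlap. The interaction of Gstm6 was not called (log2 −0.57, adjusted P value 0.244).

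Gstm2, on the minus strand of chromosome 3 from 107981702 to 107986453, fell in ventricles. It was at 109, 115 and 92.5 CPM in ventricles of the controls and at 62.1, 78.2 and 62.7 CPM in CUG960 +dox mice, 1.56-fold lower (log2 change −0.64, standard error 0.11, adjusted P value 0.00915). In atria it was at 125, 121 and 127 against 118.7, 116 and 101 CPM, also without overlap but by a log2 change of −0.15 (adjusted P value 0.195). The ventricular log2 change was −0.58 without V119 and −0.57 without V333, just short of the fold limit. The interaction had an adjusted P value of 0.155 by edgeR and 0.0479 by DESeq2.

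The other mu-class genes stayed within the threshold. Gstm7 was at 39.2, 36.9 and 36.9 against 34.8, 33.0 and 30.0 CPM in atria and at 43.3, 48.7 and 38.5 against 29.7, 36.2 and 33.0 CPM in ventricles, apart in both chambers, with a ventricular log2 change of −0.40 (adjusted P value 0.0476). Gstm1, the most abundant, had log2 changes of 0.01 (atria) and −0.19 (ventricles). Gstm4 had −0.11 and −0.24, and Gstm5 had 0.29 and 0.17, and for none of these 3 was the adjusted P value under 0.05.

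The theta-class genes Gstt1, Gstt2 and Gstt3 on chromosome 10 and the zeta-class Gstz1 were higher in atria of CUG960 +dox mice by less than the fold limit. Gstt3, on the minus strand from 75774115 to 75781414, was at 5.51, 5.76 and 5.20 CPM in atria of the controls and at 8.64, 7.81 and 7.76 CPM in CUG960 +dox mice, a 1.47-fold difference (log2 change 0.56, standard error 0.09, adjusted P value 0.0071). In ventricles it was at 3.82, 3.64 and 3.41 against 2.94, 2.98 and 3.61 CPM, with overlap and a log2 change of −0.19 (adjusted P value 0.426). The difference between chambers passed the test (interaction log2 −0.75, standard error 0.15, adjusted P value 0.0305), with adjusted P values between 0.0962 and 0.165 without V119, V120, V327, V333 or V334. Gstt1 and Gstt2 had atrial log2 changes of 0.43 and 0.48 (adjusted P values 0.0247 and 0.0120), without overlap. Gstz1, maleylacetoacetate isomerase of tyrosine breakdown, had 0.38 (adjusted P value 0.00529), and in ventricles the 3 genes had 0.11, 0.02 and 0.11.

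The alpha-class transferases were either scarce or variable. Gsta2, on the minus strand of chromosome 9 from 78331018 to 78355788, had 12, 11 and 13 counts in ventricles of the controls and 49, 29 and 35 counts in CUG960 +dox mice. The fitted difference was 2.5-fold (log2 change 1.32, standard error 0.35, adjusted P value 0.0458), at a level where 28.4% of its windows are shared with Gsta1 and other copies. The adjusted P value was 0.0836 by DESeq2, 0.0558 with no filter on low counts and 0.171 with all 12 libraries in 1 fit, and between 0.069 and 0.151 in the fits without 1 mouse. Gsta3 was at 18.9, 23.0 and 33.2 against 17.1, 19.1 and 14.1 CPM in atria and at 16.2, 20.2 and 25.3 against 10.9, 12.8 and 17.6 CPM in ventricles. It overlapped in each, and its log2 change was −0.58 in both, with adjusted P values of 0.0918 and 0.0981. Gsta4, which conjugates the lipid peroxidation product 4-hydroxynonenal, had 0.20 and 0.12.

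Of the pi class, Gstp1 had log2 changes of −0.02 (atria) and −0.04 (ventricles) and Gstp2 had 0.18 and −0.12. Among the microsomal transferases, Mgst1 was at 12.3, 12.2 and 12.8 CPM in ventricles of the controls and at 8.26, 7.72 and 9.43 CPM in CUG960 +dox mice, 1.47-fold lower without overlap (log2 change −0.55, standard error 0.10, adjusted P value 0.0114), just under the fold limit. In atria it was at 34.1, 35.1 and 36.7 against 33.8, 37.7 and 26.3 CPM, with overlap. Mgst3 had log2 changes of 0.05 and −0.06, and Mgst2, at no more than 23 counts, had 0.85 in atria with a standard error of 0.61.

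Gpx3 was the glutathione peroxidase that passed the threshold with its fold limit, and it did so in ventricles. It was at 248, 231 and 240 CPM in ventricles of the controls and at 321, 386 and 400 CPM in CUG960 +dox mice, a 1.54-fold increase (log2 change 0.62, standard error 0.09, adjusted P value 0.00427). In atria it was at 1928, 1695 and 1780 CPM against 1702, 1873 and 1696 CPM, with overlap (log2 change −0.04, adjusted P value 0.782). The difference between chambers passed the test (interaction log2 0.66, standard error 0.13, adjusted P value 0.0267). Without V123 the ventricular log2 change was 0.56, under the fold limit, and the interaction had adjusted P values between 0.0848 and 0.110 without V120, V123, V327, V333 or V334.

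Gpx3 spans bases 54902453 to 54910377 of chromosome 11, plus strand. Of the 4 genes tested within 100 kb, Tnip1, which ends 408 bases away on the other strand, was called, and it fell in both chambers, by log2 changes of −0.83 and −0.71 (adjusted P values 3.55e-04 and 0.00191). The change of Gpx3 was thus opposite to that of its neighbour in ventricles.

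The other peroxidases did not pass the threshold. Gpx1, the cytosolic enzyme, was at 103, 95.9 and 103 against 109, 118 and 92.0 CPM in atria and at 68.6, 75.9 and 68.0 against 82.0, 104 and 78.1 CPM in ventricles, where the groups were apart (log2 change 0.32, adjusted P value 0.106). Gpx4 was at 224, 204 and 231 against 212, 241 and 182 CPM in atria and at 593, 655 and 528 against 487, 595 and 520 CPM in ventricles, with overlap in each. Gpx8, an enzyme of the endoplasmic reticulum, was at 31.0, 30.2 and 30.3 against 38.6, 39.7 and 36.8 CPM in atria (log2 change 0.33, adjusted P value 0.00754) and at 18.1, 17.6 and 16.7 against 22.1, 19.99 and 21.6 CPM in ventricles (log2 change 0.28, adjusted P value 0.0672), apart in both. Gpx7, its close relative, had 0.02 and −0.10.

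None of the 4 superoxide dismutase and catalase genes was called in either chamber by edgeR, with 0 at an unadjusted P value under 0.05 in atria and 2 in ventricles, and 0 by DESeq2. Cat, the peroxisomal catalase, was at 134, 101 and 102 against 93.5, 115 and 115 CPM in atria and at 298, 277 and 273 against 197, 239 and 252 CPM in ventricles, where each CUG960 library was the lower (log2 change −0.30, adjusted P value 0.0885). The mitochondrial Sod2 was at 265, 240 and 243 against 241, 245 and 258 CPM in atria, with overlap, and at 570, 629 and 583 against 544, 551 and 541 CPM in ventricles, where the groups were narrowly apart (log2 change −0.12). Sod1 was at 148, 129 and 134 against 146, 152 and 119.5 CPM in atria and at 174, 205 and 169 against 164, 188 and 165 CPM in ventricles, with overlap in each. Sod3 had log2 changes of 0.08 and 0.28.

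The 6 peroxiredoxins stayed between log2 changes of −0.05 for Prdx3 and 0.23 for Prdx6 in atria, and between −0.15 for Prdx1 and 0.21 for Prdx2 in ventricles. Of the recycling enzymes, Gsr was at 14.6, 14.6 and 14.8 against 14.0, 12.6 and 14.0 CPM in atria and at 21.7, 22.3 and 21.7 against 19.96, 19.1 and 18.03 CPM in ventricles. Each CUG960 library was below each control in both chambers, with log2 changes of −0.11 and −0.20 and adjusted P values of 0.322 and 0.156. Gss had 0.01 and 0.12. Txnrd2 was at 39.4, 40.7 and 35.8 against 30.3, 34.5 and 32.2 CPM in ventricles (log2 change −0.25, adjusted P value 0.0918), apart, and at −0.03 on the log2 scale in atria.

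Over all 49 members tested for it, the interaction of chamber and genotype was called for 3 (6.12%), Gsto1, Gstt3 and Gpx3, against 1.38% of 18327 genes. DESeq2 called 4, with Gstm2 added. The count depended on the mice: it was 0 without V327 and without V333, 1 without V119 (Gpx3), V120 (Gsto1) or V334 (Gsto1), and 2 without V123, where Gstt3 was kept and Mgst1, not called with all mice, was added. With the mouse as a block it was 3.

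Differences between chambers were larger and more frequent than those between genotypes. In controls 24 of 48 members (50%) differed between atria and ventricles by the same threshold, against 34.9% of 17451 genes, with 9 higher in atria (18.8%, against 18.3% of all genes) and 15 higher in ventricles (31.2%, against 16.6%). In CUG960 +dox mice 25 of 48 (52.1%) differed, against 33.6% of 17559 genes, with 11 higher in atria (22.9%, against 17.2%) and 14 higher in ventricles (29.2%, against 16.4%). The median log2 change was −0.19 over the members and 0.03 over all genes in controls, and −0.08 and 0.01 in CUG960 +dox mice.

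Among members above 1 CPM on average, the largest differences toward the atria in controls were those of Gstm6 (log2 change 3.70), Gpx3 (2.90), Gstt1 (1.90) and Mgst1 (1.5). Toward the ventricles they were those of Gsto1 (−2.84), Nqo1 (−1.91), Gpx4 (−1.44) and Cat (−1.34). The same 8 genes except Cat had log2 changes of 4.25, 2.24, 2.21, 1.93, −2.20, −1.83 and −1.35 in CUG960 +dox mice, where Gstt2 (1.40) took the place of Cat. No library of an atrium reached one of a ventricle, or the reverse, for these genes within a genotype. The mitochondrial enzymes Sod2, Prdx3 and Txnrd2 were higher in ventricles of the controls, by log2 changes of −1.26, −1.27 and −1.25, as were Mgst3 (−1.33), Prdx6 (−1.22), Prdx5 (−1.16), Gstz1 (−0.78), Gsr (−0.59) and Hagh itself (−0.88). The scarce Gsta1 and Gsta2 were also higher in ventricles, and no fold is given for Gsta2, which had at most 4 counts in an atrium. Prdx4, Gpx8, Gstt2, Gstt3 and Hmox1 were higher in atria, by 0.80, 0.80, 0.95, 0.59 and 0.59. DESeq2 called 7 members higher in atria of the controls and 15 higher in ventricles. Of the 2 NRF2 target enzymes, Nqo1 and Hmox1, it called 1. In atria of the controls Hmox1 was highest in V334, at 14.3 CPM against 11.8 and 10.1 CPM.

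**Figure D5:**
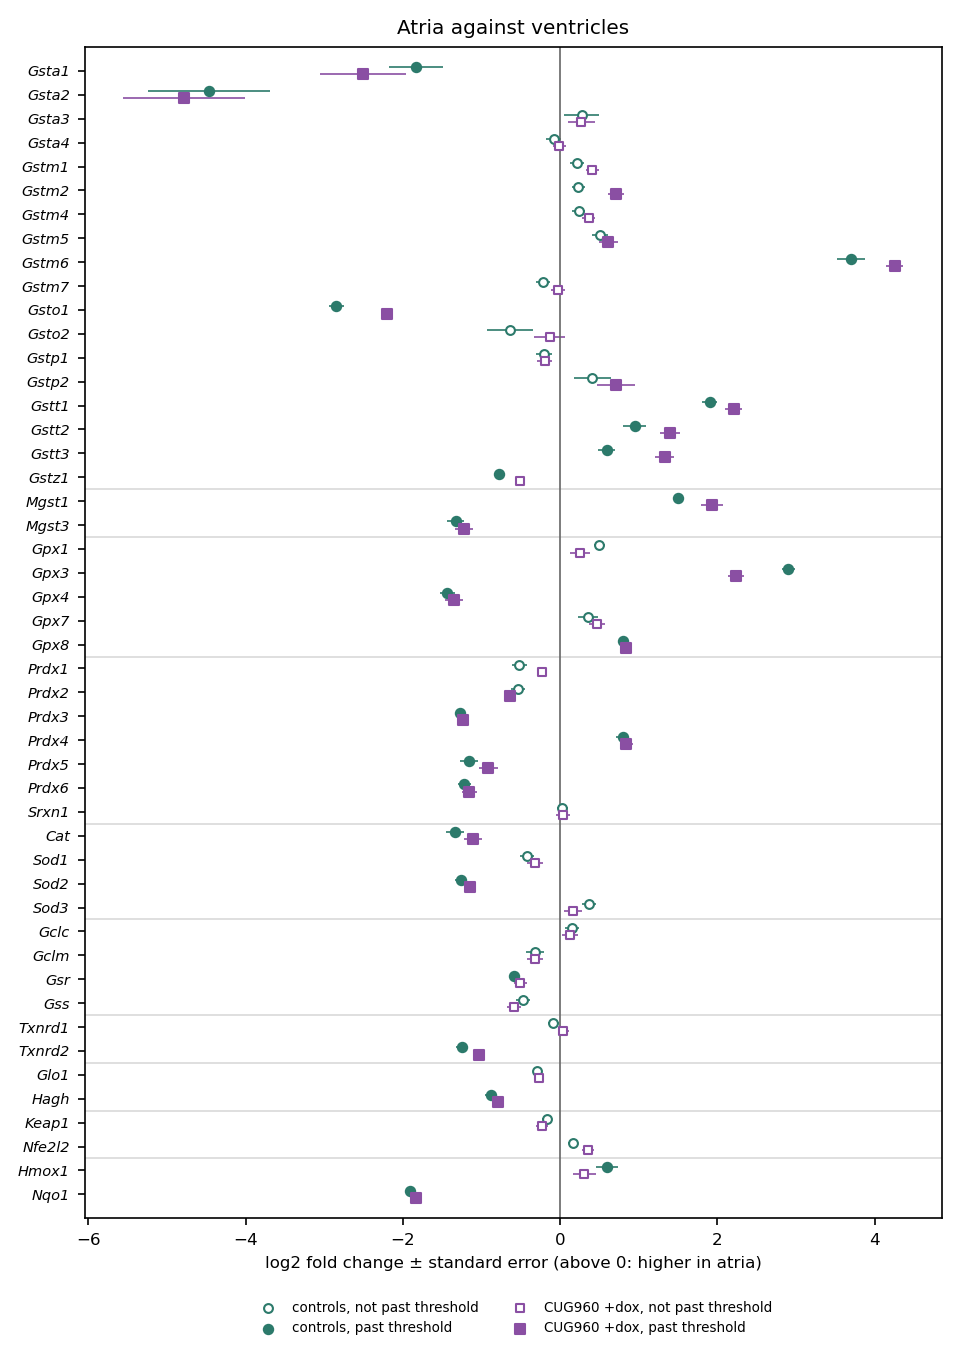
Log2 fold change with its standard error for each member tested, atria against ventricles, in MHCrtTA +dox controls (circles) and CUG960 +dox mice (squares), n = 3 libraries against 3 from the same mice, with filled symbols past the threshold. The genotypes lie close for most members, with −2.84 and −2.20 for Gsto1 and 3.70 and 4.25 for Gstm6.

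These differences ran beside differences in cell makeup. The 6 mesothelial markers, led by Upk3b, summed to between 176 and 306 CPM in atria and to at most 7.99 CPM in ventricles, and 6 of 6 were higher in atria of the controls. Of the 10 leukocyte markers, led by Csf1r, 7 were higher in atria of the controls, with sums between 182 and 293 CPM against 81.3 and 103 CPM in ventricles, and of the 8 fibroblast markers, led by Dcn, 6 were higher. The 8 adipocyte markers, led by Fabp4, summed to between 131 and 180 CPM in atria of the controls and between 502 and 641 CPM in ventricles. Of the 7 tested, 1 was higher in atria and 1 in ventricles. Of the 6 smooth muscle markers, 1 was higher in atria and 3 in ventricles. The part of these cells in the chamber differences of the members was not tested.

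The same lists were read between genotypes. The summed atrial cardiomyocyte markers, led by Nppa, were at 30503, 29783 and 27707 CPM in atria of the controls and at 24456, 25389 and 23228 CPM in those of CUG960 +dox mice, without overlap, and 0 of the 7 were called there by edgeR, with 2 at an unadjusted P value under 0.05 and 0 by DESeq2. In ventricles Nppa, atrial natriuretic peptide, rose (log2 change 1.3, adjusted P value 0.0314) and Bmp10 fell from 2.86 ± 0.772 to 0.172 ± 0.124 CPM (log2 change −4.06, adjusted P value 0.00161), and both were called in the interaction. Of the ventricular cardiomyocyte markers, Hey2 fell and Lbh rose in atria, by log2 changes of −0.67 and 0.64, and 0 of 7 were called in ventricles by edgeR, with 4 at an unadjusted P value under 0.05 and 0 by DESeq2. Their sums in ventricles, at 18997, 21667 and 18204 CPM in controls and 20855, 23145 and 21912 CPM in CUG960 +dox mice, overlapped. The part of these differences in the changes of the members was not tested. Of 8 endothelial markers, Pecam1 and Tek fell in atria, by log2 changes of −0.71 and −0.62, and 0 were called in ventricles by edgeR, with 6 at an unadjusted P value under 0.05 and 0 by DESeq2. Their summed level was between 845 and 1058 CPM in atria of the controls and between 688 and 816 CPM in those of CUG960 +dox mice, and between 818 and 967 against 665 and 706 CPM in ventricles. Of 8 adipocyte markers, led by Fabp4, 0 were called in atria by edgeR (1 at an unadjusted P value under 0.05, 0 by DESeq2) and 4 fell in ventricles (Plin1, Cfd, Retn and Fabp4), where the sums were 614, 641 and 502 CPM in controls and 339, 388 and 424 CPM in CUG960 +dox mice. In ventricles each of the 7 adipocyte markers tested had an unadjusted P value under 0.05, and DESeq2 called 5 of the list. The median log2 change of the adipocyte markers there was −1.60, against −0.01 over all genes. The summed levels of endothelial and adipocyte markers thus did not overlap between genotypes in ventricles. Nor did those of Schwann cell and neuron markers, at 9.55, 9.26 and 9.41 against 4.24, 5.82 and 7.21 CPM. Mesothelial sums were apart as well, at 7.07, 7.99 and 7.05 against 6.30, 6.11 and 4.125 CPM. Among the members, 18 of 48 (37.5%) did not overlap in ventricles, against 31.2% of all genes. Most of the adipocyte sums came from Fabp4, at means of 579 and 381 CPM, which capillary endothelium also expresses, while Adipoq, a defining marker, was at a mean of 1.45 CPM in ventricles of the controls and Ucp1 at 0.150 CPM. The part of any of these cell types in the changes of the members was not tested.

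Of the 8 fibroblast markers, Postn fell in atria (log2 change −0.73), where 7 of 8 had an unadjusted P value under 0.05 and the median log2 change was −0.33, against −0.01 over all genes. The summed level there was 2245, 2584 and 2625 CPM in controls and 2126, 2214 and 1888 CPM in CUG960 +dox mice, without overlap, and its part in the changes of the members was not tested. In the same list 0 of 8 markers were called in ventricles by edgeR, with 2 at an unadjusted P value under 0.05 and 0 by DESeq2. In smooth muscle Tagln rose in atria by 1.21 and fell in ventricles by 0.63 on the log2 scale, where Myh11 and Mylk fell as well. Mbp, a myelin gene, fell in atria with a log2 change of −0.66. No leukocyte, mesothelial, erythroid or hepatocyte marker was called in either chamber by edgeR, with at most 5 of a list at an unadjusted P value under 0.05 and at most 2 by DESeq2. The 5 were erythroid markers in atria, of 6 tested, with a median log2 change of −1.76 and 1 called by DESeq2. Control V334 had the highest erythroid sum among the atria. The part of these cells in the changes of the members was not tested. The defining hepatocyte gene Alb had a mean of 0.00787 CPM or less in each group.

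Genes around the members were taken from 7 further lists of the pathway. Of 18 genes of glutathione turnover and cystine uptake, 2 were called in atria and 1 in ventricles, all higher. Ggt1, gamma-glutamyltransferase, which starts the breakdown of extracellular glutathione, rose from 0.764 ± 0.166 to 2.0 ± 0.202 CPM (SD, n = 3) in atria (log2 change 1.39, adjusted P value 0.00329) and from 0.0731 ± 0.00756 to 0.226 ± 0.0243 CPM in ventricles (1.61, adjusted P value 0.0258). DESeq2 called 2 of this list in atria and 0 in ventricles, so that the ventricular call of Ggt1 was lost with it. Ggct, which splits gamma-glutamyl amino acids in the same cycle, rose from 19.4 ± 1.49 to 29.6 ± 1.77 CPM in atria (log2 change 0.61, adjusted P value 0.0024) and had 0.50 in ventricles, under the fold limit. Slc7a11, the cystine transporter subunit induced by NRF2, had −0.20 and −0.41, with adjusted P values of 0.427 and 0.117. Abcc1, an exporter of glutathione conjugates, had −0.40 in atria and 0.11 in ventricles, and its interaction was called (adjusted P value 0.0436).

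Of the other NRF2 targets, 0 of 20 tested in atria were called, with 4 at an unadjusted P value under 0.05 and 0 by DESeq2, and 1 of 19 in ventricles. That gene, Aox1, an aldehyde oxidase, fell from 26.1 ± 2.48 to 16.6 ± 1.15 CPM in ventricles (log2 change −0.65, adjusted P value 0.00427), and its interaction was called as well (adjusted P value 0.0457). The heavy chain of ferritin, Fth1, the most abundant of the list, had 0.05 and −0.05. Of the partners and regulators of NRF2, 0 of 13 were called in atria and 0 of 12 in ventricles by edgeR, with 2 and 1 at an unadjusted P value under 0.05 and 0 by DESeq2. Nfe2l1 and Sqstm1 led that list in level and had log2 changes between −0.03 and 0.24.

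Of 10 genes that supply NADPH, led by the mitochondrial Idh2, 0 were called in either chamber by edgeR, with 5 in atria and 3 in ventricles at an unadjusted P value under 0.05 and 0 by DESeq2. Of 18 thioredoxin and glutaredoxin genes, 0 were called in atria (10 at an unadjusted P value under 0.05, 0 by DESeq2) and Sesn2, a stress-induced sestrin, rose in ventricles from 4.90 ± 0.106 to 8.10 ± 0.974 CPM (log2 change 0.72, adjusted P value 0.00561). Of 11 genes of selenium supply, on which glutathione peroxidases depend, Lrp8, a receptor for selenoprotein P, fell in atria from 9.98 ± 0.957 to 6.19 ± 1.57 CPM (log2 change −0.69, adjusted P value 0.0366), and 0 were called in ventricles by edgeR, with 1 at an unadjusted P value under 0.05 and 0 by DESeq2.

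Of 12 sources of superoxide and peroxide tested, 0 were called in either chamber by edgeR, with 5 in atria and 3 in ventricles at an unadjusted P value under 0.05 and 0 by DESeq2. Maob, monoamine oxidase B, which makes peroxide at the mitochondrial outer membrane, was highest of the list and had log2 changes of 0.52 (atria) and 0.40 (ventricles) (adjusted P values 0.00185 and 0.0139), under the fold limit. Maoa had 0.38 and −0.40, and its interaction was called (adjusted P value 0.0379).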

How the data were processed

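The authors prepared stranded poly(A) libraries, aligned the reads to mm10 (GRCm38) and estimated expected counts per gene with RSEM 1.3.1 on an Ensembl annotation, and the deposited expected counts are whole numbers, 1 column per library, unscaled for library size. Of the 51826 entries, 92 repeat a symbol and were kept apart. Groups came from the sample labels.

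Genes were kept by filterByExpr, scaled by TMM and tested by glmQLFit and glmQLFTest of edgeR 4.0.16 in R 4.3.3 with Benjamini-Hochberg adjustment over all genes tested, in each comparison separately. Calls needed an adjusted P value under 0.05 with at least a 1.5-fold change, with no fold limit for the interaction, which was fitted over all 12 libraries. Log2 changes come from each fit and printed CPM from TMM over all libraries. With 3 mice per group, an exact permutation test cannot reach less than p = 0.1. The steps were tested on simulated data. Exon lengths, positions and shared windows came from GENCODE vM21 of GRCm38, a later release than the annotation counted on, and promoters from RefSeq. Promoters of Gclc, Gsr, Gsta4, Gstt2, Hmox1, Prdx6 and Sod3 were not analysed here.

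Atria and ventricles of the same animal carry the same number, so the mouse pairs the chambers. Deviations from the group means of a mouse's atrial and ventricular libraries had, over genes, r = 0.311, 0.142 and 0.159 in controls (V327, V333, V334) and 0.0454, 0.320 and 0.237 in CUG960 +dox mice (V119, V120, V123). Between libraries of different mice r was from −0.2295 to 0.0524 in controls and from −0.386 to 0.155 in CUG960 +dox mice. The highest of these in CUG960 +dox mice was above the r of V119. The mouse was a block in an alternative fit.

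Values in every library were given for members called between genotypes or in the interaction, for Nfe2l2, Keap1 and 7 standard NRF2 targets, and for abundant detoxifying enzymes, and the 8 members with the largest change were named from each chamber comparison. Values of Gsto2, Glo1, Mgst1, Gpx8, Gstm7, Gsta3 and Txnrd2 in every library were added after they were seen. The members and lists were chosen with earlier results of these data known. Alternatives were DESeq2 1.42.0, RLE and upper quartile scaling, other count filters and fold limits, 1 fit of all libraries, the block, and leaving out each mouse. Depth was between 116127966 and 160676189 counts. Plots used matplotlib 3.10.9 in Python 3.11.15. A gene of the marker lists is not reported here.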

Additional observations from a re-analysis of the deposited data

Results flagged for a closer look

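For 3 members the change in CUG960 +dox mice differed between the chambers by the interaction test of edgeR over all 12 libraries, with 3 mice per genotype. Gpx3 changed by 0.66 more in ventricles than in atria on the log2 scale (log2 change 0.62 in ventricles and −0.04 in atria, adjusted P value 0.0267). For Gsto1 the difference was −0.65, with 0.37 in ventricles and 1.02 in atria (adjusted P value 0.0123). For Gstt3 it was −0.75, with −0.19 in ventricles and 0.56 in atria (adjusted P value 0.0305), and part of its sequence is shared with Gm20441. None of the 3 was called when V327 or V333 was left out. For Gpx3, Gsto1 and Gstt3 the adjusted P values by edgeR were 0.110, 0.0569 and 0.137 without V327. They were 0.0888, 0.0695 and 0.125 without V333. Groups of 3 libraries were too small for the test for a library far from the others.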

How the results depend on the processing

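Of 1055 repeats of single gene results under an alternative, 1011 kept their side of the threshold, 39 fell short of it and 5 newly passed it. The sign changed in 37, all of which were called neither in the reported fit nor under the alternative. The counts of members moved with the fold limit. With no fold limit there were 9 in atria and 7 in ventricles between genotypes, and 38 between chambers of the controls. When log2 changes had to reach 1.5, there were 0 and 0 between genotypes, 7 between chambers of the controls and 8 between those of CUG960 +dox mice. Leaving out each mouse in turn gave between 3 and 4 members in atria, 2 and 4 in ventricles, 24 and 25 between chambers of the controls, 23 and 26 between those of CUG960 +dox mice, 0 and 2 for the interaction, and 18 and 25 without overlap in atria and 20 and 25 in ventricles. The count without overlap in atria rose from 16 to 25 without V123, and fewer libraries make such a separation easier by construction. With the replicate block there were 23 members between chambers of the controls, 25 in CUG960 +dox mice and 3 for the interaction, and none of the 38 single gene results repeated with the block changed its call.

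Depth limits Gsta2, Gsta1 and Mgst2, where counts are low. For members with near-identical copies, counts depend on how RSEM divided their reads.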
